A study of Mus musculus with 6 samples.

Results

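The p53 response was followed through 10 genes in the transcriptomes of Tmem216-/- mouse embryos: Trp53, which encodes p53 itself, and 9 genes it is known to regulate, namely Cdkn1a, Mdm2, Ccng1, Sesn2, Bax, Trp53inp1, Bbc3, Phlda3 and Btg2. They were taken by gene name, each name matched 1 row, and all 10 were among the 16411 genes tested, of 56359 rows in the deposited table. The study compared 3 wild type with 3 Tmem216-/- samples, all on the C57BL/6 strain at embryonic day 12 and all labelled only as embryo. The part of the embryo, and whether each sample is 1 animal, are not given in the labels, so a p-value here measures only how far these samples vary, and some of that variation may be technical. Tmem216 encodes a membrane protein of the transition zone at the base of the primary cilium. Values are TPM, transcript abundances scaled to transcript length and to the total of each sample. They carry no read depth, so the precision of a value shows only in the spread between samples.

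p53 is a transcription factor that is kept scarce in unstressed cells because Mdm2, one of its own targets, marks it for degradation. DNA damage, ribosomal stress and other injuries free p53 from Mdm2, and the protein then raises genes for cell cycle arrest, such as Cdkn1a, and for apoptosis, such as Bax and Bbc3. Because p53 is controlled mainly as a protein, the RNA levels of its targets are the usual transcriptomic readout of its activity. In the mouse embryo excess p53 activity causes malformation and death, and the loss of several centrosomal proteins is known to set it off.

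p53 binds DNA as a tetramer at paired half-sites of 10 letters each. The p53 consensus half-site, a pattern that reads the same on both strands, was searched alone in the 250 bases before each RefSeq gene start (GRCm38.p6, the build of the mm10 files). Of the 10 genes, 9 had an entry (12 windows, since Cdkn1a and Bbc3 have several starts); Trp53inp1 had none. At least 1 exact half-site lay in 5 of the 9 genes, against 8.20% of 27025 genes with an entry, and in 9 of 39 other p53 target genes with one. No test was made, since these genes were listed for being p53 targets. The stretches are shown because they hold the exact matches. Only Cdkn1a has 2 exact matches, and these are not adjacent to each other. Mdm2, Trp53, Ccng1 and Bax have a single one. Half-sites with a mismatch were not searched, so an adjacent inexact half-site is not counted here. The 10 letters directly after the second Cdkn1a match, and those directly before the Ccng1 match, differ from the pattern at 1 position each. Whether p53 binds any of these letters was not measured. Each stretch is printed on the strand of its gene, 5′ to 3′, with exact half-sites in capitals and 20 bases on either side.
Cdkn1a: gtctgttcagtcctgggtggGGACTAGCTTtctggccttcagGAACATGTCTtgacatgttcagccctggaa
Mdm2: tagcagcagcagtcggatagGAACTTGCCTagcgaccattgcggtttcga
Trp53: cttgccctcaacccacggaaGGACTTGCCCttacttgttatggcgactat
Ccng1: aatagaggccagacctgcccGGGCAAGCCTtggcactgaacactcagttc
Bax: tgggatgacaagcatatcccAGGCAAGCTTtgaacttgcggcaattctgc

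The Cdkn1a stretch is chr17:29090886-29090957 on the plus strand, and its half-sites begin 73 and 51 bases before the start used here. The window of the other Cdkn1a start held no exact match. The Mdm2 stretch is chr10:117710915-117710964 on the minus strand, with the half-site 186 bases before the start. For Trp53 the stretch is chr11:69580264-69580313 on the plus strand, 75 bases before the start. The Ccng1 stretch is chr11:40755442-40755491 on the minus strand, 185 bases before the start, and the Bax stretch is chr7:45467070-45467119 on the minus strand, 201 bases before the start. Sesn2, Bbc3, Phlda3 and Btg2 held no exact match in these windows, which do not cover introns or more distant DNA.

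The targeted gene was checked first. Tmem216 was 31.0, 30.7 and 17.4 TPM in wild type replicates 1, 2 and 3. It was 2.25, 0.51 and 1.39 TPM in Tmem216-/- replicates 1, 2 and 3. The log2 fold change was -3.55 (limma adjusted p = 0.0266). With any 1 sample left out the adjusted p was 0.0333 to 0.196, and the call was lost in 5 of those 6 fits. The call was also lost with a pseudocount of 0.1 (-4.31, adjusted p = 0.0667) and with no filter on low values (adjusted p = 0.0874). Cpsf7, on the opposite strand, shares 169 exon bases with Tmem216 and was at 72.1 to 86.0 TPM. Its part in the Tmem216 values was not tested. Over all tested genes limma called 17 at an adjusted p under 0.05 (16 higher, 1 lower), and the median log2 fold change was -0.01. Markers of heart muscle moved with the genotype: all 16 were higher in every Tmem216-/- sample, their summed level was 50.7 to 78.2 TPM in wild type and 916 to 2390 TPM in Tmem216-/-, and none was listed at 0. Myl2, the ventricular light chain and the most abundant of them, had a log2 fold change of 6.00 (limma adjusted p = 0.0198, lost in 4 of those 6 fits). Summed hepatocyte markers ran from 225 to 2671 TPM in wild type and from 130 to 1121 TPM in Tmem216-/-, so this RNA also differed widely within each group. In whole tissue, fewer cells of a type and less RNA per cell cannot be told apart. What part such differences have in any value below was not tested.

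None of the 10 p53 response genes passed the test, neither higher nor lower, in a comparison that called 0.104% of all genes, 0.0975% as higher and 0.00609% as lower. Of the 10 genes, 5 were higher and 5 lower in Tmem216-/-, the median log2 fold change was 0.00, and the median size was 0.12, the same as the 0.12 of all tested genes. No member had an unadjusted p under 0.05 in limma, against 4.46% of all genes, and the lowest adjusted p was 0.983. Under other settings Sesn2 crossed that unadjusted level with a pseudocount of 0.1 and with eBayes without a trend, and Ccng1 without wild type replicate 2, none with an adjusted p under 0.05. The 95% interval of the fold change lay within 2-fold in either direction for 9 genes, with Ccng1 the exception, and within 1.5-fold for 7. Changes smaller than these intervals could not be detected. Larger ones could also miss the adjusted threshold: the heart muscle marker Ryr2, at a log2 fold change of 1.28, had a limma adjusted p of 0.367.

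**Figure D1:**
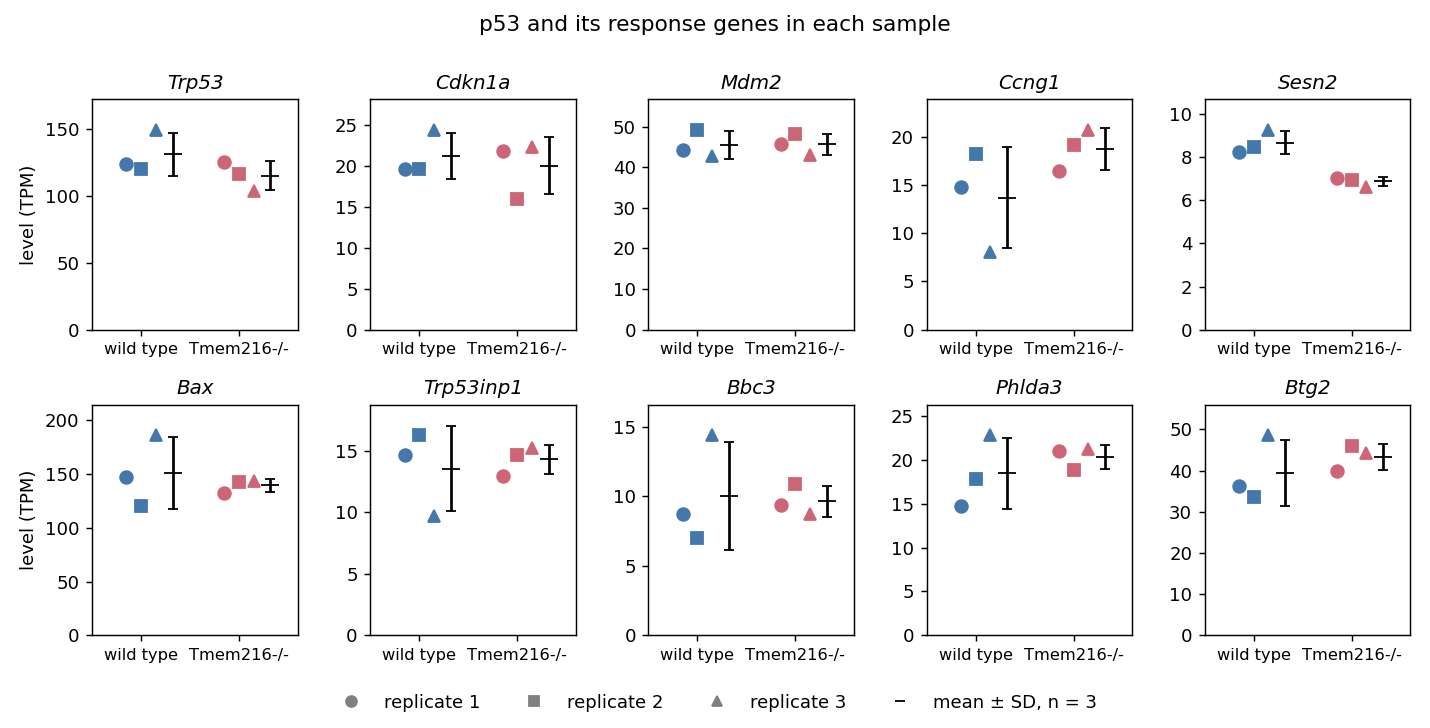
Level in TPM (y axis, from 0, a separate scale for each gene) of the 10 genes in 3 wild type (blue) and 3 Tmem216-/- (red) samples; the symbol gives the replicate number and the black bars the mean ± SD (n = 3). Groups overlap for every gene except Sesn2, where the Tmem216-/- samples (6.64 to 7.06 TPM) lie below the wild type samples (8.25 to 9.29 TPM).

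Trp53 was one of the most abundant of the set and did not pass the test. It was 124, 119.9 and 150 TPM in the wild type samples, against 125, 116 and 104 TPM in those of Tmem216-/- (replicates 1, 2 and 3 of each). Wild type replicate 3 was the highest sample, Tmem216-/- replicate 3 the lowest, and the groups overlapped. The means were 131 ± 16.1 and 115 ± 10.8 TPM (SD, n = 3 each), a log2 fold change of -0.18 (95% interval -0.47 to 0.10, limma adjusted p = 0.983). The gene lies on chromosome 11 at 69580359 to 69591873 in mm10, and the pseudogene Trp53-ps, which could share reads with it, was at no more than 0.08 TPM.

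Mdm2, the ubiquitin ligase that both answers to p53 and removes it, was the steadiest of the 10 genes over all samples. Its level was 44.3, 49.3 and 42.7 TPM in the wild type samples, against 45.7, 48.2 and 43.1 TPM in those of Tmem216-/-. The Tmem216-/- values all lay between the lowest and the highest wild type values. The log2 fold change was 0.01 with the narrowest interval of the set, -0.22 to 0.24 (limma adjusted p = 0.998). In mm10 the gene spans 117688875 to 117710758 on chromosome 10. Mdm4, a relative that blocks p53 without degrading it, was 60.3 ± 16.0 TPM in wild type and 64.6 ± 5.46 TPM in Tmem216-/- (SD, n = 3 each), a log2 fold change of 0.13.

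Of the genes for cell cycle arrest and growth control, none passed. Cdkn1a encodes p21, the inhibitor of cyclin-dependent kinases through which p53 halts the cell cycle, and it was 19.7, 19.6 and 24.5 TPM in the wild type samples, against 21.8, 16.0 and 22.4 TPM in those of Tmem216-/-. The highest value was in wild type replicate 3 and the lowest in Tmem216-/- replicate 2, with overlap between the groups. Its log2 fold change was -0.09 (95% interval -0.48 to 0.31, limma adjusted p = 0.983). Cdkn1a lies on chromosome 17 at 29090976 to 29100727, and an opposite-strand transcript that shares 273 exon bases with it was at no more than 0.4 TPM.

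Btg2, an antiproliferative gene that also marks progenitors about to give rise to neurons, was 36.2, 33.7 and 48.6 TPM in the wild type samples, against 39.8, 46.0 and 44.1 TPM in those of Tmem216-/-. Wild type replicate 3 was above every Tmem216-/- sample, and the other wild type samples were below them all. The log2 fold change was 0.15 (95% interval -0.22 to 0.51). The summed level of 11 neurogenic progenitor markers was 448, 362 and 634 TPM in the wild type samples, against 495, 498 and 510 TPM in those of Tmem216-/-, so wild type replicates 2 and 3 were lowest and highest there as well. Summed neuron markers had the same extremes, at 1426 and 2647 TPM. Over all tested genes these replicates were the highest or lowest sample in 48.8% and 62.4%. The pairing of Btg2 with progenitor markers was looked at after the values were seen, and the part of progenitor cells in the Btg2 values was not tested.

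Ccng1, which encodes cyclin G1, had the largest fold change and the widest spread of the 10 genes. It was 14.8, 18.3 and 8.02 TPM in the wild type samples, against 16.4, 19.1 and 20.8 TPM in those of Tmem216-/-. Wild type replicate 3 was far below the other 5 samples, and wild type replicate 2 lay within the Tmem216-/- range. The log2 fold change was 0.49 (SE 0.28, 95% interval -0.18 to 1.16, limma adjusted p = 0.983). Leaving out wild type replicate 3 brought it to 0.17 (-0.19 to 0.54, adjusted p = 0.867), and leaving out wild type replicate 2 to 0.72 (adjusted p = 0.411). Its relative Ccng2 had a log2 fold change of 0.05.

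The apoptosis genes of the set did not pass either. Bax, which opens the outer mitochondrial membrane, was the most abundant member, at 147, 119.95 and 186 TPM in the wild type samples, against 133, 142 and 143 TPM in those of Tmem216-/-. All Tmem216-/- samples lay between wild type replicates 2 and 3. The means were 151 ± 33.3 and 139 ± 5.96 TPM (SD, n = 3 each), with a log2 fold change of -0.09 (95% interval -0.47 to 0.28).

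Bbc3, which encodes the BH3-only protein PUMA, was 8.72, 6.99 and 14.4 TPM in the wild type samples, against 9.37, 10.9 and 8.70 TPM in those of Tmem216-/-. Here too wild type replicates 2 and 3 held the lowest and the highest value. The log2 fold change was -9.4e-05 with a wide interval, -0.61 to 0.61, so equality was not shown.

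Phlda3, an inhibitor of Akt signalling, was 14.7, 17.8 and 22.8 TPM in the wild type samples, against 21.02, 18.79 and 21.18 TPM in those of Tmem216-/-, a log2 fold change of 0.15 (95% interval -0.25 to 0.55). Trp53inp1, a stress protein that promotes p53-dependent arrest, death and autophagy, was 14.7, 16.3 and 9.68 TPM and 13.01, 14.7 and 15.25 TPM, a log2 fold change of 0.10 (-0.38 to 0.58). Both genes overlapped between the groups, and the samples at the edges were wild type.

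Sesn2 was the only member whose groups did not overlap. Sestrin 2 restrains mTORC1 when leucine is short and is raised by p53 and by the transcription factor Atf4. It was 8.25, 8.49 and 9.29 TPM in the wild type samples, against 7.06, 6.95 and 6.64 TPM in those of Tmem216-/-, or 8.68 ± 0.545 and 6.88 ± 0.218 TPM (SD, n = 3 each). Every Tmem216-/- sample was below every wild type sample, as for 4.83% of all tested genes; 4.75% were separate in the higher direction and 9.57% in either. The log2 fold change was -0.29 (SE 0.13, 95% interval -0.60 to 0.01), with an unadjusted p of 0.0545 and an adjusted p of 0.983 in limma, so Sesn2 did not pass. A two-sided exact permutation test gave 0.1, the lowest p that 3 against 3 samples allow, and from 0.2 to 1 for the other members. In mm10 Sesn2 lies on chromosome 4 at 132492032 to 132510501. The remaining members lie on chromosome 11 at 40748552 to 40755311 (Ccng1), 7 at 45461697 to 45466898 (Bax), 7 at 16308393 to 16318205 (Bbc3), 4 at 11156431 to 11174379 (Trp53inp1), 1 at 135766119 to 135769136 (Phlda3) and 1 at 134075170 to 134079120 (Btg2), and all 10 are annotated as protein coding.

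Among its paralogues, the groups of Sesn1, another p53 target, also did not overlap, but the margin was slight. Sesn1 was 22.7, 22.3 and 21.42 TPM in the wild type samples, against 20.1, 20.9 and 21.35 TPM in those of Tmem216-/-. Its log2 fold change was only -0.09. Sesn3 was at 0.13. The heart muscle markers separated the groups in the opposite direction to Sesn2. The summed level of 10 macrophage and leukocyte markers was 80.1 to 81.9 TPM in wild type and 62.8 to 71.0 TPM in Tmem216-/-. That is the same direction as Sesn2, and none of the 10 was listed at 0. Of the 9 tested, 8 were lower and 1 higher, against 8492 lower of all 16411 tested genes, and 0 passed limma. The groups of 3 were separate, all lower, against 4.83% of all tested genes. The part of these markers in the Sesn2 value was not tested.

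The levels of the 10 genes fell into 3 tiers. Bax (145 ± 22.3 TPM over all 6 samples, SD) and Trp53 (123 ± 15.1 TPM) stood well above Mdm2 (45.5 ± 2.70 TPM) and Btg2 (41.4 ± 5.84 TPM), and these in turn above Cdkn1a (20.7 ± 2.92 TPM), with no overlap between the samples of Trp53 and Mdm2 or of Btg2 and Cdkn1a. All other neighbours in the order overlapped: Cdkn1a, Phlda3 (19.4 ± 2.90 TPM), Ccng1 (16.2 ± 4.53 TPM), Trp53inp1 (13.9 ± 2.34 TPM), Bbc3 (9.84 ± 2.56 TPM) and Sesn2 (7.78 ± 1.05 TPM). Bax was above Trp53 in 6 of 6 samples, although their ranges overlapped.

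**Figure D2:**
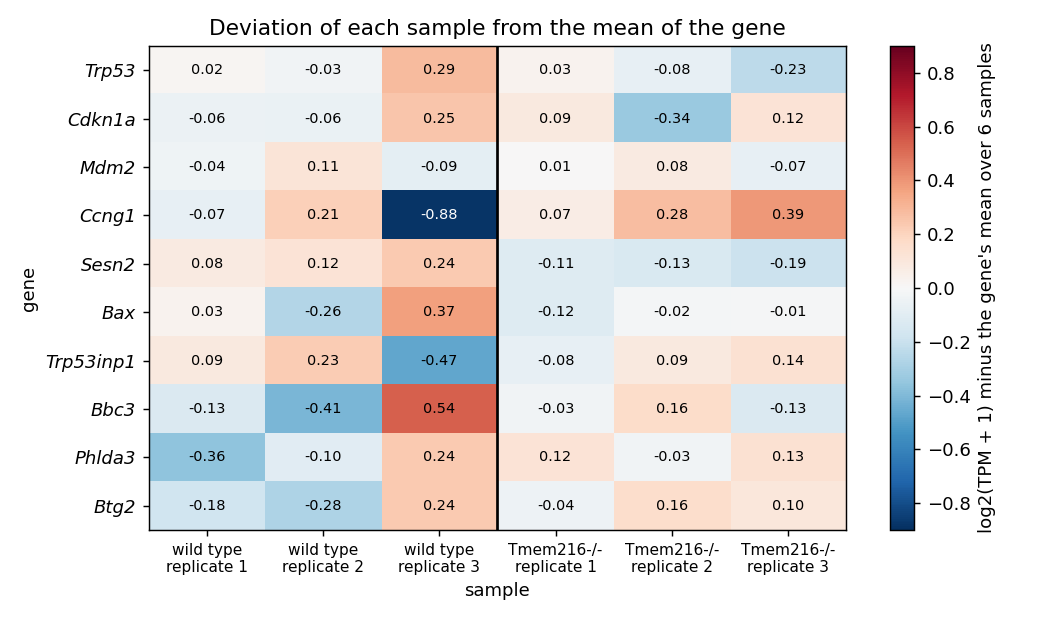
Each cell gives log2(TPM + 1) of a gene (rows) in a sample (columns) minus the mean of that gene over the 6 samples, red above and blue below. Wild type replicate 3 is the highest or the lowest sample in all 10 rows, from -0.88 for Ccng1 to 0.54 for Bbc3.

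For the p53 set the wild type samples differed more among themselves than the Tmem216-/- samples did. Wild type replicate 3 was the highest of 6 samples for 7 genes and the lowest for the other 3, Mdm2, Ccng1 and Trp53inp1; over all tested genes it was the highest or lowest in 62.4%. The set therefore did not move as 1 block in that sample. The SD of log2(TPM + 1) was larger in wild type than in Tmem216-/- for 9 of 10 members, Cdkn1a being the exception, and for 72.9% of all tested genes.

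Without wild type replicate 3 none of the 10 genes passed either, but the direction of 5 turned. Cdkn1a went to 0.01, Mdm2 to -0.03, Bax to 0.07, Trp53inp1 to -0.11 and Bbc3 to 0.27 on the log2 scale. Btg2 was then 0.30 (95% interval 0.07 to 0.53, limma adjusted p = 0.507) and Phlda3 0.31 (0.00 to 0.61, adjusted p = 0.630). Leaving out other wild type samples lowered both: Phlda3 was 0.0083 without replicate 1 and Btg2 0.043 without replicate 2, from 0.15 each with all samples. In the fit without wild type replicate 3 these were the 2 members with an unadjusted p under 0.05, against 7.84% of all genes. Sesn2 stayed at -0.25 (-0.56 to 0.06) and Trp53 at -0.09.

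**Figure D3:**
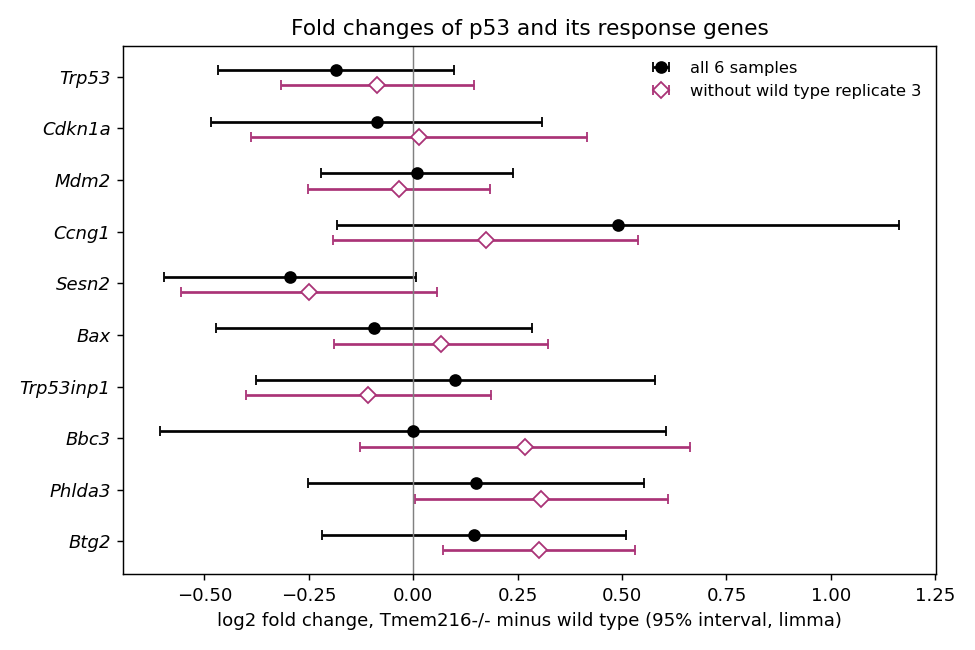
Log2 fold change, Tmem216-/- minus wild type (x axis), of the 10 genes with 95% intervals from limma, for all 6 samples (filled circles) and without wild type replicate 3 (open diamonds). With all samples every interval includes 0; without that replicate those of Phlda3 and Btg2 lie above 0, with adjusted p of 0.630 and 0.507.

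Within the set, the pair most alike over the 6 samples was Trp53 and Sesn2, whose centred log2(TPM + 1) values differed by a root mean square of 0.10, and the pair least alike was Ccng1 and Bbc3, at 0.67. Among all tested genes, those nearest to Cdkn1a by this measure over the 6 samples included Lrrc55, which encodes an auxiliary subunit of BK potassium channels (0.03), and Agbl5, a carboxypeptidase gene that acts on tubulin (0.04). Lrrc55 was at only 0.9 to 1.73 TPM, near the filter of 1 TPM, where this scale understates differences. The nearest member was Phlda3, at 0.18. That member was the closest of 9, whereas Lrrc55 and Agbl5 were picked from all tested genes. Over 6 samples so large a search can give small distances by itself, so the distances cannot be compared. Whether Cdkn1a shares regulation with any of these genes was not tested.

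No further gene of the p53 pathway passed the test. Of 48 other p53 target genes in 3 lists, 44 were tested: 18 were higher, 26 lower, 0 passed limma, and the median log2 fold change was -0.05. The medians were -0.03 for 15 genes of arrest and growth, -0.04 for 12 of apoptosis, and -0.06 for 17 of DNA repair, metabolism and feedback. At an unadjusted p under 0.05 stood 2 of the 44, Btg1 and Pidd1, against 4.46% of all genes. The groups of 5 of the 44 did not overlap: Gadd45a, Sesn1, Btg1, Pidd1 and Tap1, all lower in Tmem216-/-. Over all tested genes, 4.83% were separate in that direction and 9.57% in either. For Gadd45a the margin was slight, at 19.97 TPM in wild type replicate 3 and 19.96 TPM in Tmem216-/- replicate 1. It was also small for Sesn1, at 21.42 and 21.35 TPM in replicate 3 of each group. Btg1, an antiproliferative relative of Btg2, was 45.9 ± 4.41 and 38.3 ± 1.43 TPM (SD, n = 3 each), with a log2 fold change of -0.25 (limma adjusted p = 0.983). Pidd1, a death domain scaffold that activates caspase-2, was 13.4 ± 0.718 and 10.8 ± 0.296 TPM, with a log2 fold change of -0.29. Tap1, a peptide transporter gene, was at -0.31 and Gadd45a, a growth arrest gene, at -0.29.

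In the other direction, the gene with the smallest p in each list was far from the threshold. Gadd45g, a growth arrest gene of neural progenitors, was 88.9 ± 18.3 and 101 ± 2.66 TPM, with a log2 fold change of 0.21. Apaf1, the core of the apoptosome, was at 0.09, and Ercc5, a nucleotide excision repair endonuclease gene, at 0.19. Some targets often used as damage readouts were near the floor: Gdf15 was at most 0.78 TPM in any sample and was not tested.

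Genes that act on p53 did not pass. Of 25 tested regulators, 15 were higher and 10 lower, and the median log2 fold change was 0.01. Trp73 alone had an unadjusted p under 0.05, which is 4% of the list, against 4.46% of all genes. Usp28, a deubiquitinase that stabilises p53 together with Trp53bp1 after mitotic delay, was 28.5, 27.3 and 37.4 TPM in the wild type samples, against 37.11, 40.02 and 36.11 TPM in those of Tmem216-/- (log2 fold change 0.29, limma adjusted p = 0.983). Wild type replicate 3 fell within the Tmem216-/- range, and the other wild type samples lay below it. Daxx, a histone chaperone that also binds Mdm2, was 51.9 ± 11.1 and 39.6 ± 0.881 TPM, with a log2 fold change of -0.36. It was the only 1 of the 25 whose groups did not overlap. Over all tested genes, 4.83% were separate in that direction and 9.57% in either. Trp73, the p53 relative of the developing nervous system, was 2.20 ± 0.559 and 1.11 ± 0.544 TPM (-0.62), and its groups overlapped.

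Cell cycle genes that p53 lowers through p21 and the DREAM repressor complex were lower in 17 of 22 cases, by little. Of all 16411 tested genes, 8492 were lower. Their median log2 fold change was -0.06, against -0.01 for all genes, and 0 of 22 passed limma or had an unadjusted p under 0.05. Mybl2, the B-Myb factor of the same programme, was 26.5, 28.1 and 28.5 TPM in the wild type samples, against 24.99, 21.63 and 23.34 TPM in those of Tmem216-/- (-0.24, limma adjusted p = 0.983), with no overlap. Birc5 (-0.06) and Aurka (-0.20) did not overlap either. Groups were thus separate for 3 of the 22, all lower, against 4.83% of all tested genes in that direction. Top2a, the topoisomerase of mitotic chromosomes, was at 0.12.

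The Bcl2 family and caspases were evenly split, with 11 of 21 higher and 10 lower, around a median of 0.01 on the log2 scale. In limma 0 passed and 0 had an unadjusted p under 0.05. Cycs, cytochrome c, was at 0.25 and Bmf, a BH3-only gene, at -0.25, and the groups of no gene in this list were separate.

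The integrated stress response, the Atf4 programme that shares Sesn2 with p53, was lower in 11 of 15 tested genes, Sesn2 among them. The list had a median of -0.10 on the log2 scale, and 0 passed. For comparison, 8492 of all 16411 tested genes lay on the lower side, around a median of -0.01. An unadjusted p under 0.05 was reached by 2 of the 15, against 4.46% of all genes. Groups were separate for 2 lower genes, Psat1 and Sesn2 itself, against 4.83% of all tested genes. In the higher direction they were separate for 1, Atf3, against 4.75%. Psat1, an Atf4 target for serine synthesis, was 105, 95.7 and 94.6 TPM in the wild type samples, against 82.7, 72.4 and 71.2 TPM in those of Tmem216-/-. Every Tmem216-/- sample was lower, and the log2 fold change was -0.38 (SE 0.09, unadjusted p = 0.00535, limma adjusted p = 0.593). Asns, which encodes asparagine synthetase and is another Atf4 target (picked with its values known), had means of 42.5 ± 12.4 and 29.1 ± 7.10 TPM (-0.51, limma adjusted p = 0.983). Its groups overlapped, with 28.4 TPM in wild type replicate 3 and 37.1 TPM in Tmem216-/- replicate 1. Atf3 was in the other direction, at 1.74, 1.39 and 2.13 TPM and 3.57, 6.16 and 2.61 TPM (0.84, unadjusted p = 0.0212, limma adjusted p = 0.983). Atf4 itself was at -0.03.

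**Figure D4:**
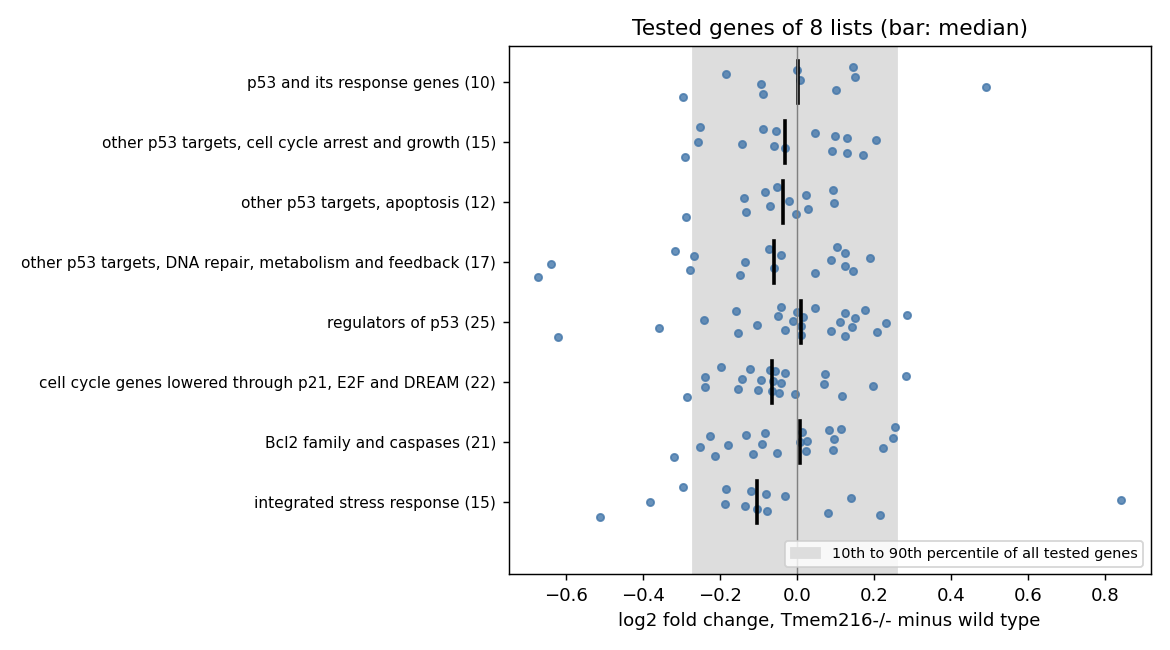
Log2 fold change, Tmem216-/- minus wild type (x axis), of each tested gene (points) in 8 lists (rows, number tested in brackets; some genes are in more than 1 list), with the median as a black bar and the 10th to 90th percentile of all tested genes (-0.27 to 0.26) in grey. The medians run from -0.10 for the integrated stress response to 0.01, and 0 genes of these lists passed limma.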

How the data were processed

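RNA was sequenced from 3 wild type and 3 Tmem216-/- samples. The authors deposited a table of TPM values, 1 row for each gene. CASAVA 1.8, HISAT2, StringTie, RSEM and the build mm10 were used, per the submitters' processing notes; parameters and strand setting are not given in the sources used here. The 2 numeric columns that name no sample were left out. Of names, 27 had become spreadsheet dates and were restored from the identifier. Where identifiers shared a symbol, the one with the highest mean was used.

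Genes that reached 1 TPM in 3 or more of the 6 samples were fitted as log2(TPM + 1) with limma 3.58.1 (R 4.3.3; lmFit, eBayes with a trend), two-sided, with Benjamini-Hochberg adjustment over all 16411 genes and a threshold of 0.05. Fold changes are on that scale, which understates low genes. Intervals are limma's 95% intervals. Exact permutation tests were exhaustive. No library depth is known. The fit was tested on simulated data.

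The members and lists were chosen with earlier results of these data known. Of 218 genes in the lists, 1 had no row. Named genes are Tmem216, the members, the gene with the smallest p in each direction of each pathway list, the most abundant marker of each cell type list and the 3 genes nearest to Cdkn1a, of which 1 is not reported here; any other gene was picked with its values known. Alternatives tried were 2 other pseudocounts (0.1 and 5), no filter or one at 5 TPM, scaling by median of ratios or by quantiles, omission of haemoglobin and mitochondrial genes, eBayes without trend or robust, the replicate number as a block, and each sample left out. Python 3.11.15, pandas 2.3.3, scipy 1.17.1 and matplotlib 3.10.9 were used.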

Additional observations from a re-analysis of the deposited data

How the results depend on the processing

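In all 16 alternatives 0 of the 10 p53 genes passed limma, and their median log2 fold change ran from -0.05 to 0.05 when a sample was left out and from -0.0011 to 0.02 otherwise. The count over all genes was 0 with no filter, where 30598 genes were tested and 1207 had an unadjusted p under 0.05, and ran from 0 to 27 with a sample left out (0 without wild type replicate 1, where 518 genes had an unadjusted p below 0.05; 2 and 1 leaving out wild type replicates 2 and 3; 27, 9 and 7 without Tmem216-/- replicates 1, 2 and 3); the cause was not tested. With the replicate number as a block it was 25, with 0 members. Deviations from the group means had correlations of 0.02, -0.09 and 0.10 between same-numbered samples. Between differently numbered samples they ran from -0.15 to 0.14. With 3 samples in each group these values cannot show whether the numbers pair the samples. Bbc3, at -9.4e-05, turned to 0.0047 with a pseudocount of 0.1, 0.0085 with median-of-ratios scaling, 0.0055 with quantile normalization and 0.012 without haemoglobin and mitochondrial genes; the cause was not tested. With a sample left out, 5 of the 10 members kept their sign. The others ranged from -0.17 to 0.060 (Cdkn1a), -0.034 to 0.067 (Mdm2), -0.25 to 0.067 (Bax), -0.11 to 0.24 (Trp53inp1) and -0.20 to 0.27 (Bbc3); Top2a ranged from -0.050 to 0.25, Tubb3 from -0.38 to 0.31, Hes6 from -0.16 to 0.27, Lrrc55 from -0.18 to 0.025 and Agbl5 from -0.14 to 0.063. Tmem216 ranged from -3.81 to -3.25 with a sample left out (adjusted p from 0.0333 to 0.196) and from -4.31 to -2.27 under the other settings (0.0199 to 0.0874), where its call was lost with a pseudocount of 0.1 (0.0667) and with no filter (0.0874); the cause was not tested. Because the deposited TPM carry no depth, counting error could not be separated from the spread between samples.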

Other observations

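The p53 relative Trp63, a gene of stratifying surface epithelium, was 4.36 ± 0.257 TPM in wild type and 3.61 ± 1.05 TPM in Tmem216-/- (SD, n = 3 each; log2 fold change -0.24). Cdkn2a, which encodes the Mdm2 inhibitor Arf, was 0.11 TPM in wild type replicate 1 and listed at 0 in the other 5 samples. Gls2, a p53 target for mitochondrial glutaminase, was 14.3 TPM in wild type replicate 1 and between 1.27 and 3.45 TPM elsewhere, and Steap3, a metalloreductase gene of iron uptake, was 10.6, 11.3 and 3.43 TPM in the wild type samples, against 7.48, 3.05 and 3.84 TPM in those of Tmem216-/-. For Steap3 the higher samples, wild type replicates 1 and 2 and Tmem216-/- replicate 1, were also those with the most hepatocyte marker RNA (2303, 2671 and 1121 TPM, against 225, 130 and 162 TPM in wild type replicate 3 and Tmem216-/- replicates 2 and 3); that part was not tested. These genes were picked after their values were seen.

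The most abundant markers of the remaining cell type lists did not pass limma: Tnnt1 of skeletal muscle (log2 fold change 0.39), Tubb3 of neurons (-0.03), Hes6 of neurogenic progenitors (0.03), Hbb-y of erythroid cells (0.22), Afp of hepatocytes (-3.93, adjusted p = 0.983) and C1qb of macrophages (-0.21). Summed marker levels of wild type and Tmem216-/- samples ranged over 175 to 323 and 222 to 370.0 TPM for skeletal muscle, 1426 to 2647 and 1783 to 2107 TPM for neurons, and 34823 to 42500 and 24987 to 54067 TPM for erythroid cells, overlapping in all 3 lists.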
